A study of Mus musculus with 6 samples.

Results

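The V1 sector of the vacuolar-type proton pump (V-ATPase) was followed through its 8 broadly expressed cytosolic subunit genes, *Atp6v1a*, *Atp6v1b2*, *Atp6v1c1*, *Atp6v1d*, *Atp6v1e1*, *Atp6v1f*, *Atp6v1g1* and *Atp6v1h*, which were chosen by symbol among the 24972 genes of the deposited table. RNA-Seq had been made from CD31-selected lung endothelial cells (iLECs) of mice at postnatal day 7, with 3 control libraries and 3 *Atp6ap2* iECKO libraries. The labels give the control genotype as PRR (Atp6ap2)fl/Y and the mutant genotype as the same floxed allele with Cdh5-CreERT2+, a Cre recombinase that the endothelial *Cdh5* promoter drives and tamoxifen activates. All pups, controls included, received 100 µg of tamoxifen on days 1 to 3, so Cre itself differs between the groups along with *Atp6ap2*. The labels name the strain C57BL/6, whereas the study's methods describe a mixed CD1 and C57BL/6 background. Nothing in the labels says whether a library came from 1 pup or several, so the *P* values measure the spread between these libraries.

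The V-ATPase pumps protons into lysosomes, endosomes and secretory vesicles, and it works as a rotary motor. In its cytosolic V1 sector, subunits A and B form a ring that hydrolyzes ATP, D and F form the central shaft that turns inside the ring, and the peripheral stalks of E and G, with C and H, hold the ring still and join it to the membrane sector V0, through which the protons pass. Cells can switch the pump off by releasing V1 from V0. *Atp6ap2*, the deleted gene, encodes an accessory protein bound to V0, which is why the transcripts of the V1 subunits are of interest in these cells.

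The values are counts that the authors normalized between libraries, called normalized counts here, and they summed to 26243878 to 28725799 in a library. Genotypes were compared with limma, a linear model over all genes that had a normalized count of 10 in 3 or more libraries, on the log2 scale after adding 1, and a gene is called where its adjusted *P* value was below 0.05. All 10 endothelial markers examined were above 0 in every library, and none was called different between genotypes by limma (1 had an unadjusted *P* value below 0.05), nor was any epithelial, macrophage, erythroid or lymphatic endothelial marker. Of 10 fibroblast markers, 9 were tested and 7 called lower in the *Atp6ap2* iECKO libraries, beside 4.97% of all genes tested. The list summed to 17648 to 22245 normalized counts there, against 42278 to 72493 in controls. Most of the sum came from collagen genes, with *Col1a1* at 17353, *Col1a2* at 23695 and *Col3a1* at 26691 in control replicate 2. *Mfap5* ran higher in mutants without being called, at 57.2, 39.8 and 64.0 in controls and 100, 62.5 and 74.5 in mutants. Of 10 mural and smooth muscle markers, 7 were likewise called lower, with sums of 5639 to 7156 against 13610 to 20658. The study reports lower collagen, *Pdgfrb* and *Notch3* transcripts as changes in endothelial cells, with *Col3a1* also lower by qPCR in isolated retinal endothelial cells. At the protein level it reports lower collagen III and laminin in iLECs, and lower collagen IV staining in mutant retinas. Collagen III and laminin were also lower in cultured human aortic endothelial cells stimulated with prorenin after *Atp6ap2* knockdown. Its immunoblot of cell purity detected VE-cadherin only in iLECs, and αSMA and desmin in the non-endothelial fraction. Which cells the lower transcripts in these libraries came from was not tested. *Xist*, which is transcribed from an inactive X chromosome, was at 31.7 in control replicate 3 and 19.3 in *Atp6ap2* iECKO replicate 2, and between 37704 and 47487 in the 4 others, although all 6 labels read fl/Y. The study places *Atp6ap2* on the X chromosome and describes fl/Y males and fl/fl females in both groups, with pups of both sexes analyzed. The labels therefore do not settle the sex of a library. Control replicate 3 also had the highest value for 9 of 10 epithelial markers, 7 of 10 mural and smooth muscle markers and 4 of 6 erythroid markers. *Atp6ap2* itself was at 7490, 5815 and 5681 in controls and at 4220, 2336 and 1982 in mutants, a log2 difference of -1.22 (95% interval -1.82 to -0.62, adjusted *P* = 0.0306 by limma), and 5 of the 6 fits that left out a library, all except the one without *Atp6ap2* iECKO replicate 1, had an adjusted *P* value above 0.05.

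None of the 8 V1 genes passed the threshold. All 8 were tested, with 0 genes at an adjusted *P* value below 0.05 by limma and 0 at an unadjusted *P* value below 0.05, on a background of 8.25% of the 14456 genes tested at the adjusted threshold and 23.9% at the unadjusted one. Their log2 differences, *Atp6ap2* iECKO minus control, ran from -0.24 (*Atp6v1f*) to 0.12 (*Atp6v1h*) with a median of 0.03, beside a median of 0.00 over all genes tested. The libraries of the 2 genotypes did not overlap for 2 of the 8 genes, 1 higher and 1 lower, where 29.8% of all genes tested did not overlap. The 95% intervals of the 8 genes reached at most a fall of 28.8% (*Atp6v1f*) and a rise of 28.3% (*Atp6v1a*), and all lay above the interval of *Atp6ap2*. Changes inside these intervals could not be told from none with 3 libraries per genotype. Because the cells are a bulk sample, a change in the cells captured and a change in RNA per cell cannot be told apart, and the part of the lower fibroblast and mural markers in these values was not tested.

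**Figure D1:**
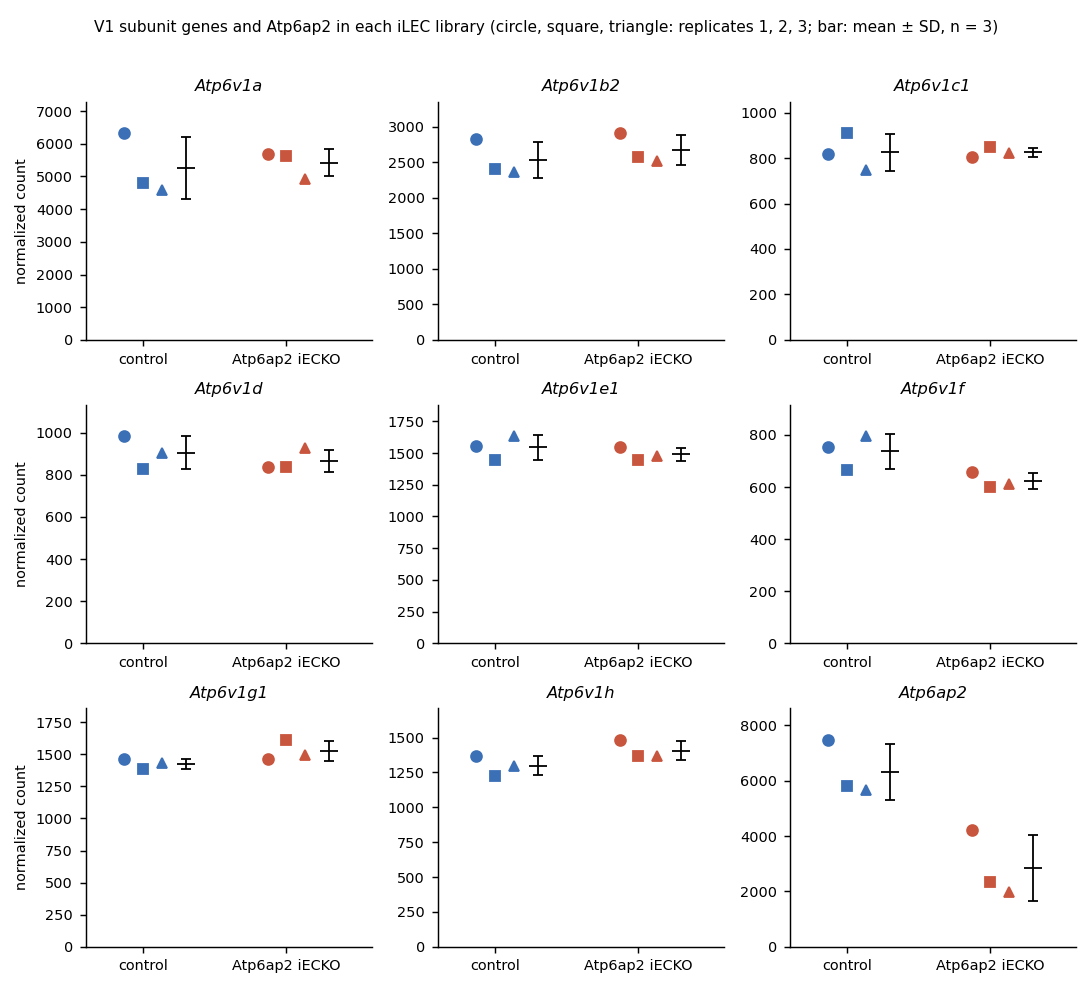
Normalized counts (vertical axes, from 0) of the 8 V1 genes and of *Atp6ap2* in each library, with controls in blue and *Atp6ap2* iECKO libraries in red, and the mean ± SD (n = 3) beside them. The genotypes overlap for 6 V1 genes, *Atp6v1f* is lower and *Atp6v1g1* higher in each mutant library without passing the threshold, and *Atp6ap2* falls from a mean of 6329 to 2846.

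Promoter sequences of *Atp6v1a* and *Atp6v1f* are shown because the former holds the letters of the motif that lysosomal regulators recognize and the latter had the lowest *P* value of the 8 genes. The windows run from 250 bases before to 50 after the RefSeq start on GRCm38.p6, for *Atp6v1a* chr16:44139210-44139509 on the minus strand and for *Atp6v1f* chr6:29467533-29467832 on the plus strand. The GENCODE gene model of *Atp6v1a* reaches further: the RefSeq start lies 446 bases downstream of its outermost 5′ end, 3 of its 6 transcripts begin upstream of that start and the nearest begins 46 bases away, so the whole window, with its CACGTG, lies inside the gene as GENCODE draws it. For *Atp6v1f* the RefSeq start lies 65 bases downstream of the GENCODE 5′ end. Capitals mark CACGTG with any flanking base of TCACGTG, and GGGCGG or CCAAT, each searched on both strands.
Atp6v1a: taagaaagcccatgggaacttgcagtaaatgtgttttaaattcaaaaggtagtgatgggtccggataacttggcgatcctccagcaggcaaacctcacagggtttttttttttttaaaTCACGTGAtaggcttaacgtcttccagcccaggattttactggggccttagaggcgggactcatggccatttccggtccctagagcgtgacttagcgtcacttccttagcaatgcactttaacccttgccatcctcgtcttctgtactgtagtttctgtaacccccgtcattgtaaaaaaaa
Atp6v1f: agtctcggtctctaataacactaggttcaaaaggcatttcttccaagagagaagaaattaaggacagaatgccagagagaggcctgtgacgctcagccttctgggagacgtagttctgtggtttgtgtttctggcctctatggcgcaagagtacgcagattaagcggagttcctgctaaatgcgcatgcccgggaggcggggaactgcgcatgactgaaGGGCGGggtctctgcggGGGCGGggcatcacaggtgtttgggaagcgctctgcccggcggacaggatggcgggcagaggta
Of the 8 V1 genes, 4 had an entry in the promoter table (*Atp6v1a*, *Atp6v1d*, *Atp6v1e1* and *Atp6v1f*). CACGTG, the core that the lysosomal regulators TFEB and TFE3 can bind, was found in 1 of the 4, as was TCACGTG, which overlaps it. Over all 32851 promoter windows, 7.15% held the former and 3.77% the latter. GGGCGG, the GC box, was found in 3 of the 4, beside 35.7% of all windows, and CCAAT in 1 of the 4, beside 37.4%. A match of letters is a description of the window and shows no binding.

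The ATP-hydrolyzing ring showed the largest spread between libraries. *Atp6v1a*, on chromosome 16 of GRCm38 from 44085402 to 44139705, encodes subunit A, which binds and splits ATP. Its normalized counts were 6339, 4803 and 4600 in controls and 5690, 5626 and 4935 in *Atp6ap2* iECKO libraries. Control replicate 1 stood above all other libraries and the genotypes overlapped. The log2 difference of *Atp6v1a* was 0.06 (standard error 0.13, 95% interval -0.24 to 0.36, adjusted *P* = 0.834 by limma), and it turned negative, to -0.03, without control replicate 3. *Atp6v1b2*, on chromosome 8 from 69088646 to 69113711, encodes the B subunit found in most tissues, which alternates with A in the ring. It had 2824, 2408 and 2362 in controls and 2918, 2579 and 2521 in mutants. Replicate 1 was again the highest library of each genotype, and the mutant values lay within or just above the control range. Its log2 difference was 0.08 (standard error 0.10, 95% interval -0.15 to 0.31, adjusted *P* = 0.683).

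Both shaft genes had a negative log2 difference that did not pass, and the libraries of the genotypes were apart for *Atp6v1f*. *Atp6v1d*, on chromosome 12 from 78840725 to 78861638, encodes the long coiled-coil subunit of the shaft. It was at 984, 828 and 905 in controls and at 837, 837 and 928 in *Atp6ap2* iECKO libraries, so the ranges overlapped almost wholly, and its log2 difference was -0.06 (standard error 0.10, 95% interval -0.30 to 0.18, adjusted *P* = 0.775). *Atp6v1f*, on chromosome 6 from 29467718 to 29470512, encodes the small subunit that binds D. It was at 753, 664 and 796 in controls and at 656, 602 and 611 in mutants. Each mutant library lay below each control library, with 656 and 664 as the closest pair (two-sided *P* = 0.1 by an exact permutation test, which cannot go lower with 3 libraries against 3). The log2 difference of *Atp6v1f* was -0.24 (standard error 0.11, 95% interval -0.49 to 0.01, unadjusted *P* = 0.0576, adjusted *P* = 0.227 by limma). Over 16 alternative settings it stayed between -0.31 and -0.16, with adjusted *P* values from 0.162 to 0.642.

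Among the 4 stalk genes, all 95% intervals of the difference included 0. *Atp6v1e1*, on chromosome 6 from 120794305 to 120822793, encodes the stalk subunit E. It was at 1558, 1443 and 1634 in controls and at 1545, 1447 and 1475 in *Atp6ap2* iECKO libraries, with overlapping ranges and a log2 difference of -0.05 (standard error 0.08, 95% interval -0.24 to 0.14, adjusted *P* = 0.762). *Atp6v1g1*, on chromosome 4 from 63544772 to 63550750, encodes its partner G. Its values of 1463, 1387 and 1429 in controls and 1466, 1615 and 1494 in mutants did not overlap, although the closest pair was 1463 and 1466 (two-sided *P* = 0.1 by the exact permutation test). The log2 difference of *Atp6v1g1* was 0.10 (standard error 0.08, 95% interval -0.09 to 0.28, adjusted *P* = 0.525).

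*Atp6v1c1*, on chromosome 15 from 38661933 to 38692446, encodes subunit C, which bridges the stalks to V0 and leaves the complex when V1 is released. It was at 817, 912 and 749 in controls and at 805, 847 and 822 in *Atp6ap2* iECKO libraries. All mutant values fell inside the control range, and the log2 difference of *Atp6v1c1* was 0.00 (standard error 0.10, 95% interval -0.24 to 0.24, adjusted *P* = 0.991). *Atp6v1h*, on chromosome 1 from 5070018 to 5162529, encodes subunit H, which is needed for activity and keeps the released V1 from hydrolyzing ATP. It was at 1366, 1228 and 1299 in controls and at 1486, 1366 and 1369 in mutants. The lowest mutant library and the highest control library were level, and the log2 difference of *Atp6v1h* was 0.12 (standard error 0.09, 95% interval -0.08 to 0.31, adjusted *P* = 0.457). The kit used does not mark strand, and exons of *Atp6v1e1* and *Atp6v1h* share 32 and 127 bases with the oppositely oriented genes *Slc25a18* and *Rgs20*.

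Within a genotype, the SD of the log2 values was between 0.06 (*Atp6v1g1*) and 0.20 (*Atp6v1a*), with a median of 0.10, beside 0.12 for the 5292 genes of the same range of levels. The median size of the log2 difference was 0.07 for the V1 genes and 0.15 for those 5292 genes, of which 10.4% were called. These figures describe the members beside other genes and were not tested.

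Levels of different genes were compared per length, as the normalized count per kilobase of exon in the 3 control libraries. *Atp6v1g1* was highest, at 1256 ± 33.5 (SD, n = 3), followed by *Atp6v1a* at 868 ± 157, *Atp6v1f* at 694 ± 63.3, *Atp6v1b2* at 477 ± 48.0 and *Atp6v1e1* at 376 ± 23.3. *Atp6v1d* at 197 ± 16.9, *Atp6v1c1* at 147 ± 14.6 and *Atp6v1h* at 133 ± 7.12 formed the lower end. By exon length, the highest level was 9.44 times the lowest. Among the 7 pairs of neighbours in this order, only *Atp6v1c1* and *Atp6v1h* had overlapping control ranges. The subunits that each pump holds in several copies, A, B, E and G, were thus all among the upper 5 genes, together with the single-copy subunit F, while D, C and H made up the lower 3. That split held with the length of the longest protein-coding transcript, with its coding length, and with the longest coding length of any transcript, but the order inside each part changed. Per kilobase of the longest transcript, *Atp6v1d* was the lowest at 247 ± 21.3, and *Atp6v1h* was at 633 ± 33.9. By that length *Atp6v1g1* at 1256 ± 33.5 was close to *Atp6v1a* at 1239 ± 225. So was *Atp6v1f* at 915 ± 83.5 to *Atp6v1b2* at 896 ± 90.1. The span and the gaps between neighbours given above thus hold for exon length only. The median of the 8 levels was 427 per kilobase, where the median of 14311 tested genes with a length was 125.

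**Figure D2:**
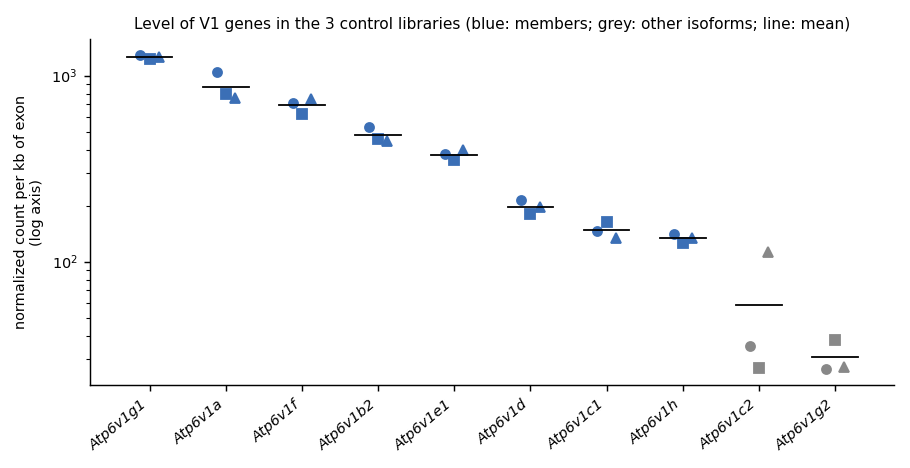
Normalized count per kilobase of exon (vertical log axis) in the 3 control libraries for the 8 V1 genes (blue) and for *Atp6v1c2* and *Atp6v1g2* (grey), with the mean as a line and replicates 1, 2 and 3 as circle, square and triangle. *Atp6v1g1* leads at a mean of 1256, and *Atp6v1c2* spreads from 26.7 to 113 with control replicate 3 at the top.

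Subunits B, C, E and G also have isoform genes that are used by particular tissues, such as acid-secreting epithelia, testis or neurons. *Atp6v1b1* was listed at 0 in 5 libraries and at 1.51 in *Atp6ap2* iECKO replicate 2. *Atp6v1e2* was listed at 0 in 5 libraries and at 1.87 in *Atp6ap2* iECKO replicate 1, and *Atp6v1g3* had 2.21 in control replicate 3, 1.91 in *Atp6ap2* iECKO replicate 1 and 0 elsewhere. These 3 genes did not pass the filter on low values and were not tested. *Atp6v1b2* and *Atp6v1e1* thus made up nearly the whole of their pairs in the iLEC libraries.

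*Atp6v1g2*, the G isoform known from neurons, was at 66.4, 95.5 and 67.9 in controls and at 61.3, 61.2 and 53.4 in *Atp6ap2* iECKO libraries. The mutant libraries all lay below the controls, but the log2 difference of -0.36 had a 95% interval from -0.95 to 0.22 (adjusted *P* = 0.438 by limma). Per length it made up between 2.01% and 3.02% of the 3 G genes in controls and between 1.59% and 1.86% in mutants. Exons of *Atp6v1g2* share 144 bases with the oppositely oriented gene *Nfkbil1*, and the kit does not mark strand. The part of *Nfkbil1* reads in these low values was not tested.

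*Atp6v1c2*, an isoform of subunit C that is known from lung, kidney and epididymis, was at 76.3, 58.0 and 245 in controls and at 103, 124 and 110 in *Atp6ap2* iECKO libraries. Control replicate 3 was far above the other controls, while the mutant libraries were close together. The log2 difference of *Atp6v1c2* was 0.12, with a 95% interval that reached from a change of -50.0% to one of 137% (adjusted *P* = 0.910). Leaving out control replicate 3 gave 0.74 (adjusted *P* = 0.157). The summed normalized count of the 10 epithelial markers was 64529 in control replicate 3, against 27115 and 23734 in the other controls and between 29218 and 36294 in mutants. Both values thus moved together in that library, and the part of epithelial RNA in the value of *Atp6v1c2* was not tested. The mural and erythroid marker sums were also highest there, at 20658 and 47722. The share of *Atp6v1c2* in both C genes per kilobase of exon was 19.4%, 14.1% and 45.7% in controls and between 24.7% and 27.4% in mutants. With the length of the longest transcript it was 10.97%, 7.74% and 30.1% in controls and between 14.4% and 16.2% in mutants. Exons of *Atp6v1c2* share 50 bases with the oppositely oriented gene *Pdia6*, and the part of *Pdia6* reads in these values was not tested either.

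**Figure D3:**
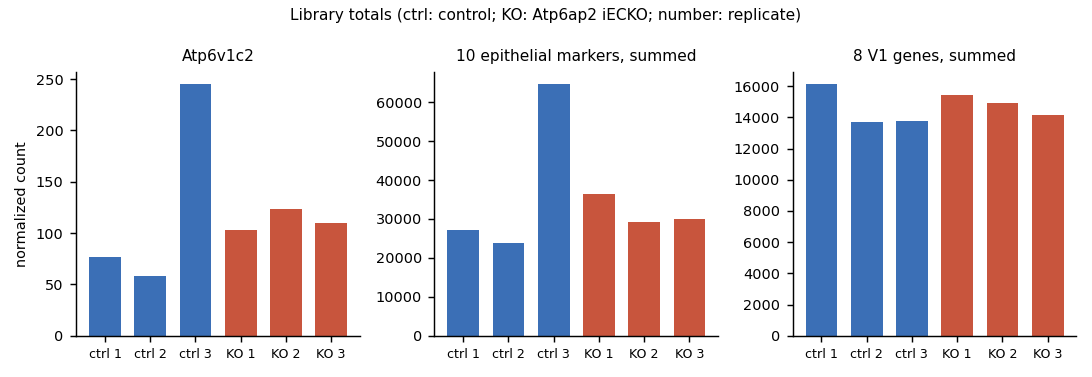
Normalized counts (vertical axes, from 0) of *Atp6v1c2*, of 10 epithelial markers summed and of the 8 V1 genes summed in each of the 6 libraries, with controls in blue and *Atp6ap2* iECKO libraries in red. Control replicate 3 is the highest library for *Atp6v1c2* (245) and the epithelial sum (64529), whereas the V1 sum is highest in control replicate 1 (16104).

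Across libraries the V1 genes did not move as one block. Of 28 pairs of members, 15 had a positive Pearson correlation of log2 values over the 6 libraries, with a range from -0.89 to 0.88 and a median of 0.06. The highest was that of *Atp6v1a* and *Atp6v1b2*, both parts of the ring. The next, at 0.86, joined the stalk gene *Atp6v1e1* to the shaft gene *Atp6v1f*. The lowest was that of the stalk genes *Atp6v1c1* and *Atp6v1e1*, and the stalk partners *Atp6v1e1* and *Atp6v1g1* were at -0.34. Control replicate 1 was the highest control for 5 of the 8 genes and control replicate 2 the lowest for 5. Summed, the 8 genes reached 16104, 13672 and 13774 normalized counts in controls and 15403, 14918 and 14155 in *Atp6ap2* iECKO libraries, so all mutant sums lay inside the control range. The genes most like the mean pattern of the members, among 11313 with a mean of at least 100, were *Cldn5* (r = 0.996), *Gnai2* (0.989), *Zbtb7a* (0.984), *Pqlc1* (0.980) and *Rap2b* (0.975). The points of these correlations are 6 libraries that share their normalization and cell isolation, and the best of so many genes will be close. *Cldn5*, a tight junction gene and one of the 10 endothelial markers, was at 37059, 26653 and 28666 in controls and at 32454, 30011 and 29271 in mutants. The summed endothelial markers were likewise highest in control replicate 1 (342739), as were the summed lymphatic endothelial markers (34779) and the library total (28725799). The endothelial sum was lowest in control replicate 3 (267826), whereas the mean V1 pattern was lowest in control replicate 2. The part of endothelial RNA in the V1 pattern was not tested.

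The factors of the TFEB family, whose CACGTG motif is marked in the *Atp6v1a* promoter above, did not pass the threshold with all 6 libraries. Of the 4 TFEB family genes tested, 0 were called by limma and 1 had an unadjusted *P* value below 0.05. *Tfeb* was at 466, 454 and 453 in controls and at 475, 410 and 406 in *Atp6ap2* iECKO libraries (log2 difference -0.09, 95% interval -0.36 to 0.18, adjusted *P* = 0.690). *Tfe3* had a log2 difference of -0.17 (95% interval -0.40 to 0.05, adjusted *P* = 0.335). *Mitf*, a relative of both, was at 241, 218 and 186 in controls and at 242, 414 and 477 in mutants. The mutant values of *Mitf* were spread widely, with replicate 1 level with the highest control, and its log2 difference was 0.76 (95% interval 0.17 to 1.35, adjusted *P* = 0.119). Without *Atp6ap2* iECKO replicate 1, *Mitf* was called higher (log2 difference 1.05, adjusted *P* = 0.0228 by limma), which it was in none of the other 15 alternative settings.

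In the membrane sector V0 and its accessory proteins, 2 of 11 genes tested were lower and 0 higher by limma, where 4.97% of all genes tested were lower. The 2 were *Atp6ap2* and *Atp6v0a1*. The fall of *Atp6ap2* was set by its deletion, so this share is no result about the sector. *Atp6v0a1* encodes an isoform of the large V0 subunit a that forms the proton channel beside the rotating V0 ring. *Atp6v0a1* was at 2396, 2394 and 2497 in controls and at 2061, 1865 and 1918 in *Atp6ap2* iECKO libraries, with no overlap and a log2 difference of -0.32 (standard error 0.08, 95% interval -0.50 to -0.14, adjusted *P* = 0.0433), which was above the threshold in 13 of 16 alternative settings, among them the replicate number as a covariate (adjusted *P* = 0.0523). *Atp6v0e*, a small V0 subunit, had a log2 difference of 0.25 (95% interval -0.02 to 0.52, adjusted *P* = 0.240). Per length, the 8 V1 genes summed to 1.22, 1.21 and 1.09 times the sum of 7 V0 genes in controls and to 1.13, 1.24 and 1.12 times in mutants, with overlapping ranges. The 7 were *Atp6v0a1*, *Atp6v0a2*, *Tcirg1*, *Atp6v0b*, *Atp6v0c*, *Atp6v0d1* and *Atp6v0e*. The sum left out *Atp6v0a4*, *Atp6v0d2*, the accessory genes and *Atp6v0e2*, which was between 552 and 691 in all libraries.

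Of the 12 assembly and regulation genes, 11 were tested, and 1 was higher and 0 lower, where 3.28% of all genes tested were higher. *Ccdc115*, which encodes an assembly factor of the pump in the endoplasmic reticulum, was at 636, 658 and 559 in controls and at 821, 921 and 824 in *Atp6ap2* iECKO libraries. The ranges were well apart, and the log2 difference of *Ccdc115* was 0.47 (standard error 0.11, 95% interval 0.22 to 0.72, adjusted *P* = 0.0387). In 9 of 16 alternative settings, among them all 6 that left out a library, its adjusted *P* value was above 0.05, with a log2 difference from 0.35 to 0.52. *Tmem199*, whose product works with that of *Ccdc115*, was at 104, 150 and 160 in controls and at 238, 228 and 214 in mutants. All mutant libraries were above all controls, with a log2 difference of 0.74 (95% interval 0.27 to 1.21) that did not pass (adjusted *P* = 0.0672). *Tm9sf4*, a binding partner of V1, was at 1471, 1516 and 1542 in controls and at 1709, 1814 and 1897 in mutants, again with no overlap and without passing (log2 difference 0.26, 95% interval 0.08 to 0.44, adjusted *P* = 0.0895). These were the 3 genes of the list with the lowest *P* values. Of the 11 tested, 7 had a positive and 4 a negative difference, with a median of 0.04. Without overlap, 3 were higher and 1 lower (*Oxr1*, log2 difference -0.16), beside 14.7% and 15% of all genes tested.

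**Figure D4:**
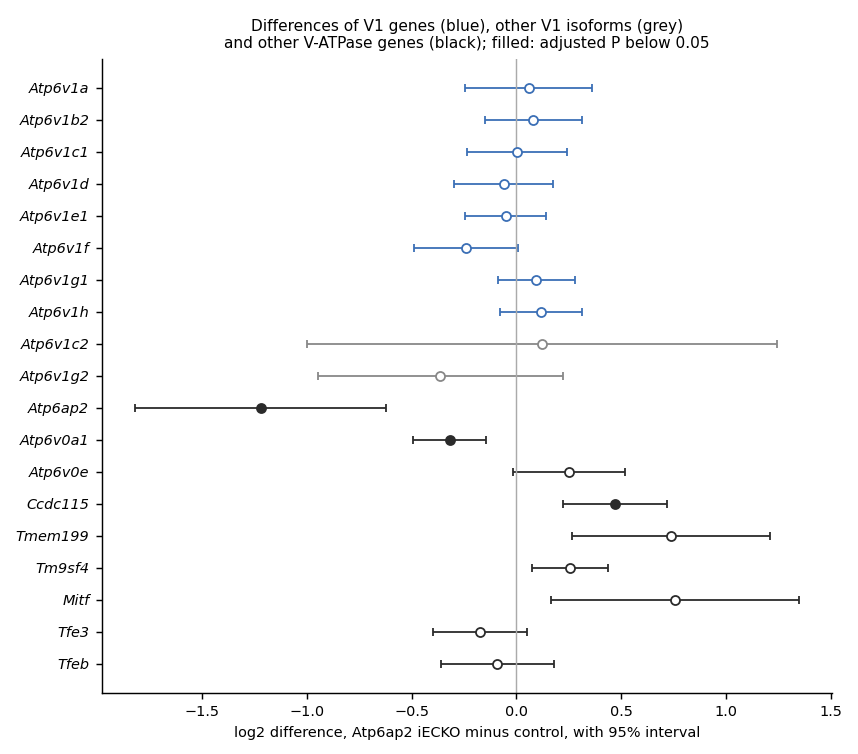
Log2 difference of the normalized count plus 1, *Atp6ap2* iECKO minus control (horizontal axis), with its 95% interval from limma, for the 8 V1 genes (blue), *Atp6v1c2* and *Atp6v1g2* (grey) and other V-ATPase genes (black), filled where the adjusted *P* value was below 0.05. The intervals of all 8 V1 genes include 0, while those of *Atp6ap2* (-1.22), *Atp6v0a1* (-0.32) and *Ccdc115* (0.47) do not and are filled.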

How the data were processed

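Libraries of CD31-selected lung cells were made with a kit that does not mark strand. According to the study's methods, the authors used BaseSpace tools to align reads to mm10 and to quantify genes. The annotation they used is not given in the sources used here. The deposited values, called raw in the labels, are a normalized signal per gene: 3.17% of the values above 0 were whole, and the median ratio to the geometric mean was 1.00 in all 6 libraries. Read numbers are therefore unknown and no counting interval is given. The most frequent lowest value put the relative depth at 1.00 to 1.04 in controls and 1.25 to 1.55 in *Atp6ap2* iECKO libraries.

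A pseudocount of 1 was added and log2 taken. limma 3.58.1 (R 4.3.3) with a trend of variance on mean compared the genotypes, without covariates, in genes that reached 10 in 3 or more libraries. Adjustment was by Benjamini-Hochberg over all these genes, and calls were made at 0.05. For single genes an exact permutation test was added. The fit was tested on simulated data. Gene positions and exon lengths came from GENCODE M21 (GRCm38), which matched 98.1% of the symbols, and promoters from RefSeq (GRCm38.p6). For *Atp6v1f*, the longest protein-coding transcript does not have the longest coding sequence. Named were all V1 genes, *Atp6ap2*, called genes of the other lists or the 3 with the lowest *P* values, and the 5 genes most like the members. The members, lists and tests were chosen with earlier results of these data known. Alternatives were other scalings, filters, pseudocounts and lengths, no trend, a covariate for the replicate number or for *Xist* above 1000, and each library left out. Figures were drawn with matplotlib 3.10.9.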

Additional observations from a re-analysis of the deposited data

How the results depend on the processing

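No V1 gene was called under any of 16 alternatives (lowest adjusted *P* = 0.162), and 1 of 128 fits of a member had an unadjusted *P* value below 0.05 (*Atp6v1f* without control replicate 2). With 3 libraries per genotype, changes inside the intervals given could not be seen. Signs of uncalled genes changed: with a library left out, *Atp6v1a* ranged from -0.030 (without control replicate 3) to 0.20, *Atp6v1c1* from -0.065 (without control replicate 3) to 0.076, *Atp6v1d* from -0.12 to 0.00049 and *Atp6v1c2* from -0.29 to 0.74. Without both libraries low in *Xist*, an alternative chosen after seeing the data, *Atp6v1a* was at -0.058, *Atp6v1c1* at -0.085, *Atp6v1e1* at 0.0097 and *Atp6ap2* at -1.19 (adjusted *P* = 0.217), and 0 of 14094 genes were called by limma (2196 at an unadjusted *P* value below 0.05). *Atp6ap2* stayed at -1.22 with no trend (adjusted *P* = 0.0917), and between -1.54 and -0.999 with a library left out. Of all genes, 304 were called with no trend, 767 with the *Xist* covariate, 1508 with the replicate number as a covariate, and 206 to 983 with a library left out, fewest without *Atp6ap2* iECKO replicate 3. Calls among the V0 and accessory genes were 1 with equal totals, equal upper quartiles, no filter, the replicate block or the *Xist* covariate, 0 with no trend or without both libraries low in *Xist*, and 0 to 1 with a library left out. Calls among assembly and TFEB family genes were 0 with no trend, the *Xist* covariate or both libraries low in *Xist* removed, and 0 to 1 with a library left out, the 1 being *Mitf* without *Atp6ap2* iECKO replicate 1. The median level of the V1 genes was 906 per kilobase of the longest transcript, 1965 per kilobase of its coding part and 1859 by the longest coding part of any transcript (chosen after seeing the data), and 412 to 438 with a control left out. The causes of these changes were not tested.

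The labels link same-numbered libraries by nothing but the number. Their deviations from the genotype means correlated, across genes, by 0.25, 0.11 and 0.08, and 2 of the 3 passed 0.1. Pairs with different numbers ran from -0.21 to 0.1002, the highest being control replicate 3 with *Atp6ap2* iECKO replicate 2, which also passed 0.1. With the replicate block 0 of 8 V1 genes were called, and *Ccdc115* kept its call (adjusted *P* = 0.0339).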

Other observations

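*Atp6v0c-ps2*, a pseudogene of the V0 ring gene *Atp6v0c*, was listed at 0 in control replicate 3 and *Atp6ap2* iECKO replicate 3, and between 784 and 844 in the 4 other libraries. The pseudogene was chosen after its values were seen. *Atp6v0c* itself was highest where the pseudogene was at 0, at 3576 and 3479, and between 2736 and 3361 in the 4 other libraries. It is among the V0 genes summed above, and the ratio of the V1 sum to that sum was lowest in the same libraries (1.09 and 1.12). Whether these values are linked was not tested.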
